A study of Homo sapiens with 33 samples.

Results

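The urokinase plasminogen system is described here through 4 genes, PLAU, PLAUR, PLAT and SERPINE2, which were taken by symbol from the 56470 gene symbols of the count table. Each of the 4 symbols had 1 row, and all 4 genes passed the filter on low counts in every comparison. The level of each gene in every library of the 3 head and neck squamous cell carcinoma (HNSCC) cell lines SCC1, SCC6 and SCC25 is compared between phosphate-buffered saline (PBS) and cetuximab, an antibody that blocks the epidermal growth factor receptor (EGFR).

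Plasminogen is a circulating zymogen that is cut to the protease plasmin by either of 2 activators, the urokinase-type activator uPA, encoded by PLAU, and the tissue-type activator tPA, encoded by PLAT. Pro-uPA binds the cell-surface receptor uPAR, encoded by PLAUR, which confines the proteolysis to the cell membrane and also signals together with integrins. Protease nexin-1, encoded by SERPINE2, is a secreted serpin that inhibits uPA, tPA, plasmin and thrombin, and in squamous carcinomas uPA and uPAR are known for their part in matrix degradation at the invasive edge.

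RNA from each cell line was sequenced daily, as 6 libraries with PBS on days 0 to 5 and 5 libraries with 100 nM cetuximab, which gave 33 libraries. SCC1, SCC6 and SCC25 are established human HNSCC lines, none is labelled with a genetic change made for the study, and PBS is the only control. Cetuximab libraries cover days 1 to 5 in SCC1 and SCC25, whereas in SCC6 no library is labelled day 1 and 2 are labelled day 2. The latter are named 2a and 2b by their place in the table, and their counts differed by far more than sampling noise, with a chi-square of 23.8 per gene over 17581 genes. The cells of a line form 1 culture series, so libraries of different days stand in for replicates and the p-values measure the spread between days.

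Total counts ranged from 28508758 to 80727478 per library, with a median of 43002133. The labels name 5 flow cells (A to E here). In SCC1, flow cell B held the PBS libraries of days 0 to 4, whereas PBS of day 5 and all 5 cetuximab libraries were on C. In SCC6 the PBS libraries of days 2 to 5 and the cetuximab libraries 2a, 2b and day 3 were on D, PBS of days 0 and 1 on C and cetuximab of days 4 and 5 on E. In SCC25 all PBS libraries and cetuximab of days 1 and 2 were on A and cetuximab of days 3 to 5 on B. Epithelial identity was checked with 7 squamous markers. CDH1, EPCAM and TP63 were detected in every line, whereas in SCC6 KRT5, KRT14 and DSG3 had mean levels of only 2.89, 5.37 and 3.26 CPM with PBS, where CPM are counts scaled by library size and the trimmed mean of M-values (TMM). With cetuximab, 6 of the 7 were called higher and 1 lower in SCC1, 2 higher and 3 lower in SCC6 and 1 higher in SCC25. Their sum was 4999 to 7124 CPM against 1076 to 2125 CPM with PBS in SCC1, 688 to 989 against 943 to 1861 CPM in SCC6, where KRT6A had a mean of 22.9 CPM against 340 CPM, and 13223 to 15585 against 11062 to 16501 CPM in SCC25. The summed level of 7 fibroblast markers was higher with cetuximab in each line, with a range of 50.02 to 146 CPM against 21.0 to 32.8 CPM in SCC1, 8.89 to 97.5 CPM against 2.97 to 6.64 CPM in SCC6, and 224 to 338 CPM against 136 to 177 CPM in SCC25. It came mostly from COL1A1 and COL1A2 in SCC1, from COL1A1 in SCC6, and with cetuximab in SCC25 from COL1A2 (mean 103 CPM), LUM (84.2 CPM) and COL1A1 (70.8 CPM). Of the markers tested, 4 of 4 were called higher in SCC1, 2 of 2 in SCC6 and 3 of 7 in SCC25, beside 22.7%, 15.6% and 8.8% of all genes, and 1 of 7 was called lower in SCC25. PDGFRA and THY1 were near 0 in SCC1 and SCC6, as was PDGFRB in SCC1, whereas PDGFRB in SCC6 was 0.0312 to 0.133 CPM with PBS and 0.567 to 8.38 CPM with cetuximab. The sum of 4 leukocyte markers was 6.33 to 9.56 CPM with cetuximab against 17.3 to 48.0 CPM with PBS in SCC1, 3.93 to 7.19 against 16.6 to 32.1 CPM in SCC6, and 145 to 174 against 166 to 231 CPM in SCC25. Nearly all of it was CD68, and PTPRC, CD3E and LYZ were near 0. These are bulk samples, in which fewer cells of a type and less RNA per cell cannot be told apart. The part of these genes in the results that follow was not tested.

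PLAU, at chr10:75668935-75677254 on the plus strand of GRCh37, and PLAUR, at chr19:44150247-44174699 on the minus strand, were the pair that changed together under cetuximab in SCC1 and SCC6, so the 250 bases before a RefSeq start site of each are shown. The sequences are from RefSeq's GRCh38.p14 annotation and each matched GRCh37 once, PLAU at chr10:75670640-75670889 and PLAUR at chr19:44174322-44174571. They run 5′ to 3′ on the gene's strand, and capitals mark every match, on either strand, to the AP-1 motif (TGANTCA), the PEA3 motif (AGGAAG), the AP-2 motif (GCCNNNGGC), which is the family motif of the transcription factor TFAP2A that the study follows, and the Sp1 motif (GGGCGG).
PLAU: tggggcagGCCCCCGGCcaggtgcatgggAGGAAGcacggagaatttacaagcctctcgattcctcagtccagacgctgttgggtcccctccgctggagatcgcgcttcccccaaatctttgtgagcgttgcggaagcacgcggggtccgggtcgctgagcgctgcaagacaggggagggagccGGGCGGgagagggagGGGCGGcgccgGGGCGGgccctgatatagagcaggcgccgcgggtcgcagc
PLAUR: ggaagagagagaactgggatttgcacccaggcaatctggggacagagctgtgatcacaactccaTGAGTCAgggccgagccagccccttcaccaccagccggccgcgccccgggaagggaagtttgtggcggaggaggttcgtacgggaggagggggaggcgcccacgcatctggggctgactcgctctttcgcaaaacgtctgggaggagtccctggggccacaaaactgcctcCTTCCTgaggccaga
In the PLAU window the AP-2 match GCCCCCGGC started 242 bases and the PEA3 match AGGAAG 221 bases before the start site, and 3 Sp1 matches started 66, 51 and 40 bases before it. In the PLAUR window the AP-1 match TGAGTCA started 186 bases and the PEA3 match CTTCCT 15 bases before the start site. No 2 matches overlapped. Among 35116 RefSeq promoters of the same length, 6.57% held the AP-1 motif, 28.7% the PEA3 motif, 19.8% the AP-2 motif and 42.6% the Sp1 motif. A second PLAU start site, 522 bases upstream, had none of the 4 motifs in its 250 bases. For SERPINE2, at chr2:224839762-224904035 on the minus strand, the table held 2 start sites, 646 and 7808 bases downstream of the start of the canonical transcript. Their windows had Sp1 matches only, 2 in the former and 1 in the latter. The 250 bases before the canonical start of SERPINE2 were not searched. PLAT was not in the promoter table.

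The levels of the 4 genes without drug differed between the lines. Per kilobase of the canonical transcript, on days 1 to 5 with PBS, PLAU had the highest mean in SCC1, 605 ± 156 CPM per kb (SD, n = 5), and in SCC6, 407 ± 143 CPM per kb. In SCC1 it was followed by PLAUR with 57.7 ± 16.6, PLAT with 3.45 ± 0.616 and SERPINE2 with 1.58 ± 0.323 CPM per kb, and neighbours in this order did not overlap by 1 SD. In SCC6, PLAUR followed with 198 ± 75.0 CPM per kb, SERPINE2 with 40.4 ± 13.8 and PLAT with 5.87 ± 3.82, and there PLAU and PLAUR overlapped within 1 SD. In SCC25 the inhibitor SERPINE2 stood first, with 307 ± 74.9 CPM per kb, before PLAU with 166 ± 20.2, PLAUR with 21.9 ± 1.58 and PLAT with 4.53 ± 1.37.

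SERPINE2 was the gene whose untreated level differed most between the lines among the 4. Over 6 PBS libraries, its level was 2.30 to 4.23 CPM (median 3.87) in SCC1, 55.4 to 122 CPM (median 98.4) in SCC6 and 476 to 974 CPM (median 764) in SCC25, so the 3 ranges did not overlap. The log2 difference was 4.70 ± 0.24 (SE) for SCC6 over SCC1 (adjusted p = 6.79e-13, quasi-likelihood F test of edgeR, adjusted by Benjamini-Hochberg, as for every adjusted p below unless another tool is named), 2.96 ± 0.21 for SCC25 over SCC6 (adjusted p = 1.50e-10) and 7.66 ± 0.27 for SCC25 over SCC1 (adjusted p = 2.60e-15). Flow cell C holds untreated libraries of both SCC6 (days 0 and 1) and SCC1 (day 5), and there SERPINE2 was 114 and 122 CPM in SCC6 against 2.30 CPM in SCC1. The PBS libraries of SCC25 share no flow cell with those of the other lines, so line and flow cell cannot be told apart for SCC25.

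PLAUR, the receptor, was highest in SCC6, at 127 to 385 CPM (median 306), against 29.8 to 96.3 CPM (median 80.8) in SCC1 and 25.3 to 33.2 CPM (median 29.6) in SCC25. SCC6 lay above the other 2 lines in every library, whereas the lowest SCC1 library, day 0, fell inside the SCC25 range. The log2 difference was 1.99 ± 0.27 for SCC6 over SCC1 (adjusted p = 1.40e-06), -1.27 ± 0.26 for SCC25 over SCC1 (adjusted p = 2.36e-04) and -3.26 ± 0.28 for SCC25 over SCC6 (adjusted p = 2.22e-09). PLAU was 746 to 1829 CPM (median 1355) in SCC1 and 524 to 1347 CPM (median 1093) in SCC6, ranges that overlapped, and 331 to 559 CPM (median 416) in SCC25. The difference between SCC6 and SCC1 did not pass the test (-0.36 ± 0.23, adjusted p = 0.16), and SCC25 was lower than SCC1 by a log2 difference of -1.64 ± 0.23 (adjusted p = 2.85e-06) and lower than SCC6 by -1.28 ± 0.23 (adjusted p = 4.94e-05). PLAT was low in each line, at 9.08 to 13.8 CPM in SCC1, 5.17 to 33.9 CPM in SCC6 and 10.3 to 20.8 CPM in SCC25, and none of its 3 line differences passed the test (adjusted p = 0.15, 0.38 and 0.58). Without the SCC6 library of day 0 or of day 1, PLAT passed between SCC6 and SCC1 (0.77 with adjusted p = 0.040, and 0.78 with adjusted p = 0.041). Of the 4 genes, 2 were called between SCC6 and SCC1, where 69.1% of all 19746 genes tested were called, 3 between SCC25 and SCC1 (69% of all genes) and 3 between SCC25 and SCC6 (72.1%).

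With cetuximab, PLAU and PLAUR were lower in all 3 lines, by more than 2-fold in SCC1 and SCC6 and by less in SCC25. SERPINE2 was lower in SCC1 and SCC25 and did not pass the test in SCC6, and PLAT did not pass the test in any line over days 1 to 5. Of the 4 genes, 3 were called in SCC1, 2 in SCC6 and 3 in SCC25, all lower. Among all genes tested, 44.8% were called in SCC1 (22.7% higher and 22.1% lower), 30.1% in SCC6 (15.6% and 14.6%) and 18.3% in SCC25 (8.8% and 9.5%). The groups did not overlap for PLAU, PLAUR and SERPINE2 in SCC1, where this held for 31.3% of all genes, for PLAU and PLAUR in SCC6 (19.1%), and for PLAUR in SCC25 (14.7%).

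**Figure D1:**
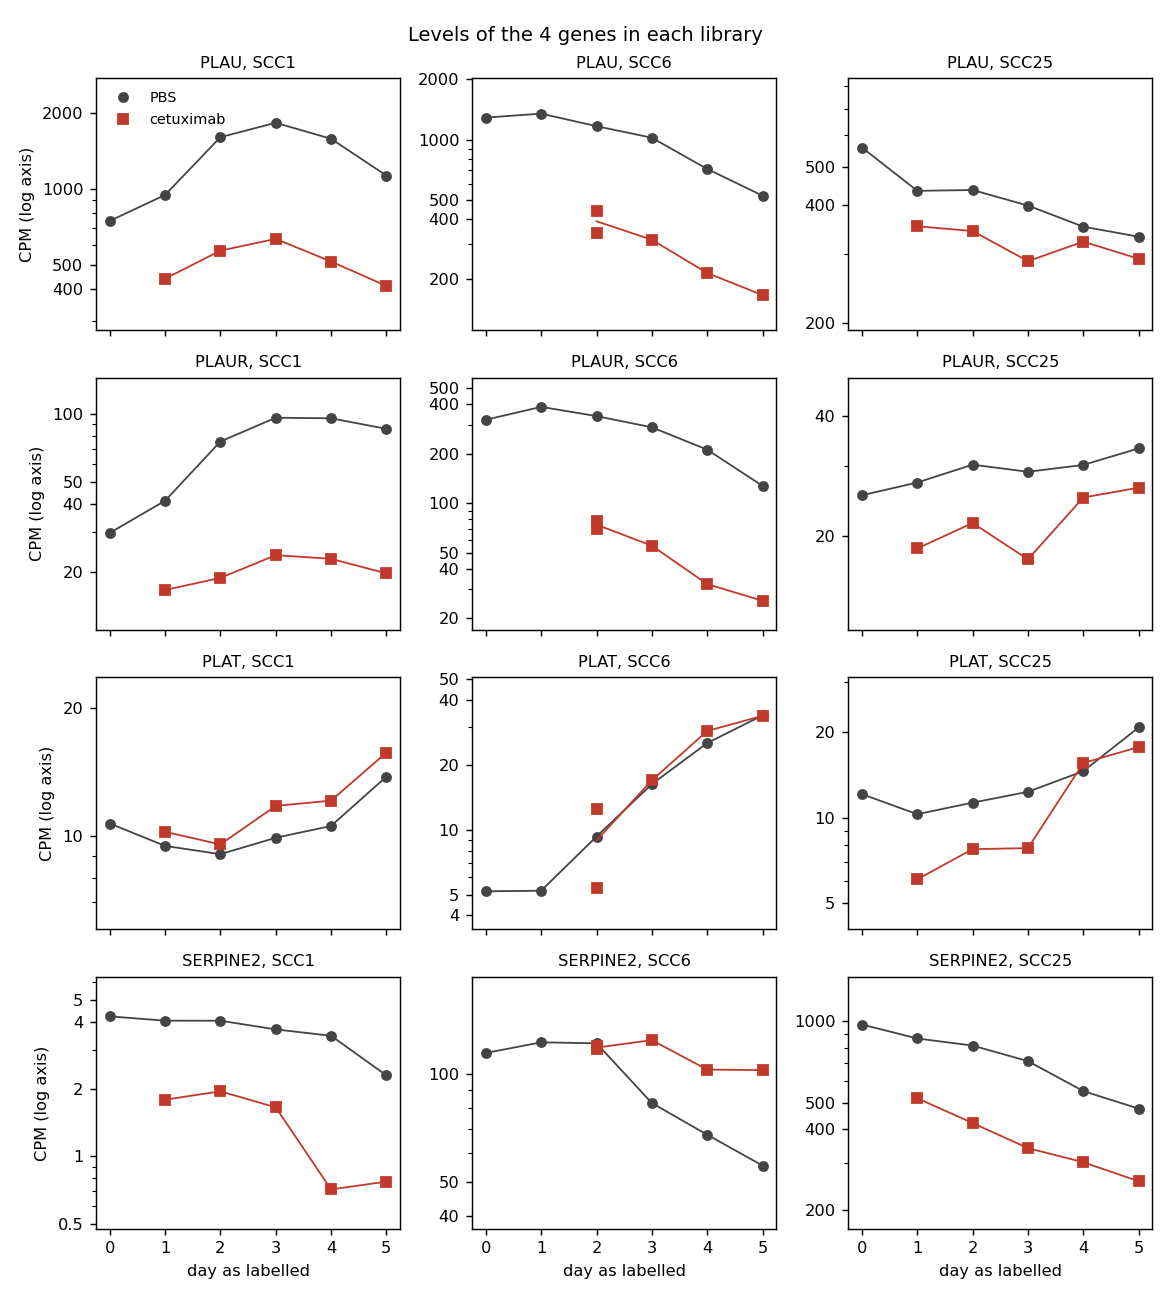
Level of each gene in each of the 33 libraries, in CPM on a log axis whose range differs between panels, against the day given in the labels, with PBS as grey circles and cetuximab as red squares. Lines join the libraries of a treatment, or the mean of 2a and 2b on day 2 in SCC6. PLAU and PLAUR with cetuximab lay below PBS on every day with both treatments, whereas in SCC6 SERPINE2 with PBS fell away from the cetuximab values after day 2.

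PLAU, the gene of the activator uPA, was measured at the highest counts of the 4 genes in SCC1 and SCC6. In SCC1 its level on days 1 to 5 was 946, 1604, 1829, 1580 and 1129 CPM with PBS and 440, 568, 633, 515 and 412 CPM with cetuximab. Every cetuximab library lay below every PBS library, and both courses were highest on day 3. The fitted ratio of cetuximab to PBS was 0.365 (log2 fold change -1.45 ± 0.17, adjusted p = 2.78e-05). Flow cell C holds 1 PBS library, of day 5, and 5 cetuximab libraries, so values within it are given with no test, and there the log2 fold change was -1.14.

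In SCC6, PLAU was 1347, 1166, 1021, 713 and 524 CPM with PBS on days 1 to 5, and 340, 440, 315, 215 and 167 CPM with cetuximab in libraries 2a, 2b and days 3 to 5. The groups did not overlap, and PLAU was lower late than early under both treatments. The ratio was 0.306 (log2 fold change -1.71 ± 0.30, adjusted p = 0.0014), and it was -1.23 ± 0.25 on the log2 scale within flow cell D, with 4 PBS and 3 cetuximab libraries (adjusted p = 0.0047). On D the PBS libraries are those of days 2 to 5 and the cetuximab libraries 2a, 2b and day 3. Flow cell and day are therefore mixed in the values within D, for each gene. The number after the flow cell in the library codes also differs on D between all PBS and all cetuximab libraries. Its part cannot be told apart from that of the treatment there. Without libraries 2a and 2b the log2 fold change was -2.07 ± 0.33 (adjusted p = 0.0011).

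In SCC25, PLAU was 434, 436, 398, 351 and 331 CPM with PBS and 352, 342, 287, 322 and 291 CPM with cetuximab on days 1 to 5. Each day's cetuximab library lay below the PBS library of that day, but the groups overlapped, since cetuximab on days 1 and 2 exceeded PBS on day 5. The ratio was 0.815 (log2 fold change -0.29 ± 0.089, adjusted p = 0.038). This call was lost without any 1 of 6 libraries, PBS of days 1, 2 or 3 or cetuximab of days 3, 4 or 5 (adjusted p 0.063 to 0.10), and within flow cell A, with 5 PBS and 2 cetuximab libraries, the log2 fold change was -0.17 ± 0.10 (adjusted p = 0.34). It was also lost with upper quartile scaling (-0.25, adjusted p = 0.064), and 9 of 17 alternatives kept it. The cetuximab libraries on A are those of days 1 and 2, whose same-day log2 ratios of PLAU were -0.30 and -0.35. C10orf55, an antisense gene that overlaps PLAU, had 58 to 359 counts per library, at most 0.981% of the PLAU count.

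PLAUR, which encodes the receptor of uPA, had the largest fall of the 4 genes in SCC1 and SCC6. In SCC1 its level on days 1 to 5 was 41.3, 75.6, 96.3, 95.8 and 86.0 CPM with PBS and 16.6, 18.8, 23.7, 22.9 and 19.7 CPM with cetuximab. The groups did not overlap, and PBS on day 1 was the lowest of the PBS libraries of these days. The ratio was 0.260 (log2 fold change -1.95 ± 0.19, adjusted p = 8.73e-06), and within flow cell C the log2 fold change was -2.08.

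In SCC6, PLAUR was 385, 339, 289, 212 and 127 CPM with PBS on days 1 to 5, and 78.0, 70.2, 55.1, 32.2 and 25.5 CPM with cetuximab in libraries 2a, 2b and days 3 to 5. The highest cetuximab library lay below the lowest PBS library. The ratio was 0.190 (log2 fold change -2.39 ± 0.36, adjusted p = 5.62e-04), within flow cell D the log2 fold change was -1.84 ± 0.29 (adjusted p = 0.0012), and without 2a and 2b it was -2.88 ± 0.39 (adjusted p = 4.78e-04). In SCC25, PLAUR was 27.3, 30.2, 29.0, 30.2 and 33.2 CPM with PBS and 18.7, 21.6, 17.5, 25.0 and 26.5 CPM with cetuximab on days 1 to 5. The groups were separated by less than 1 CPM, between PBS on day 1 and cetuximab on day 5. The ratio was 0.727 (log2 fold change -0.46 ± 0.11, adjusted p = 0.014), and within flow cell A the log2 fold change was -0.57 ± 0.093 (adjusted p = 0.0054).

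PLAT, at chr8:42032236-42065227 on the minus strand and the gene of the other activator, tPA, did not pass the test in any line over days 1 to 5. In SCC1 it was 9.49, 9.08, 9.92, 10.6 and 13.8 CPM with PBS and 10.2, 9.57, 11.8, 12.1 and 15.7 CPM with cetuximab, slightly above PBS on each day, with a log2 fold change of 0.18 ± 0.15 (adjusted p = 0.34). In SCC6 it was 5.21, 9.29, 16.3, 25.2 and 33.9 CPM with PBS and 5.39, 12.4, 16.9, 28.7 and 33.7 CPM with cetuximab in libraries 2a, 2b and days 3 to 5, with a log2 fold change of 0.10 ± 0.52 (adjusted p = 0.90). The groups overlapped in each of these lines, and the log2 fold change within 1 flow cell was -0.22 in SCC1 and -0.86 ± 0.43 in SCC6 (adjusted p = 0.16). Libraries 2a and 2b, which carry the same day in the labels, differed in PLAT more than in the other 3 genes.

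In SCC25, PLAT was 10.3, 11.3, 12.3, 14.6 and 20.8 CPM with PBS and 6.08, 7.76, 7.82, 15.6 and 17.8 CPM with cetuximab on days 1 to 5. The cetuximab libraries of days 1 to 3 lay below every PBS library, and those of days 4 and 5 within the PBS range. The log2 fold change over all 5 days was -0.34 ± 0.29 (adjusted p = 0.46). With day as a block it was -0.41 ± 0.12 (adjusted p = 0.037), and within flow cell A, where the cetuximab libraries are those of days 1 and 2, it was -1.005 ± 0.25 (adjusted p = 0.032).

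SERPINE2, the inhibitor, was lower with cetuximab in SCC1 and SCC25 and did not pass the test in SCC6. In SCC1, where it was lowest of the 3 lines, it was at 4.05, 4.04, 3.70, 3.46 and 2.30 CPM with PBS and 1.79, 1.95, 1.66, 0.711 and 0.771 CPM with cetuximab, from 107 to 180 and from 29 to 87 counts. The groups did not overlap, and the ratio was 0.396 (log2 fold change -1.33 ± 0.27, adjusted p = 0.0017). Within flow cell C, whose only PBS library is the lowest one, the log2 fold change was -0.74.

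In SCC6, SERPINE2 was 122, 121, 82.7, 67.5 and 55.4 CPM with PBS on days 1 to 5, and 119, 117, 124, 103 and 102 CPM with cetuximab in libraries 2a, 2b and days 3 to 5. The cetuximab libraries stayed between 102 and 124 CPM, whereas PBS was lower from day 3 on, and the groups overlapped through PBS of days 1 and 2. The log2 fold change was 0.31 ± 0.20 (adjusted p = 0.27). With the labelled day as a block it was 0.44 ± 0.14 (adjusted p = 0.031). Within flow cell D it was 0.55 ± 0.21 (adjusted p = 0.079), and without 2a and 2b it was 0.26 ± 0.25 (adjusted p = 0.46).

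In SCC25, where SERPINE2 was most abundant, it was 865, 814, 713, 552 and 476 CPM with PBS and 520, 421, 340, 301 and 256 CPM with cetuximab on days 1 to 5. Both courses went down from day to day, cetuximab lay below PBS on each of the 5 days, and the groups overlapped only through cetuximab on day 1. The ratio was 0.536 (log2 fold change -0.90 ± 0.20, adjusted p = 0.010). Within flow cell A the log2 fold change was -0.54 ± 0.20 (adjusted p = 0.12), with PBS of days 1 to 5 and cetuximab of days 1 and 2 only. The same-day log2 ratios of SERPINE2 on days 1 and 2 were -0.74 and -0.95, so flow cell and day are mixed in that value.

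**Figure D2:**
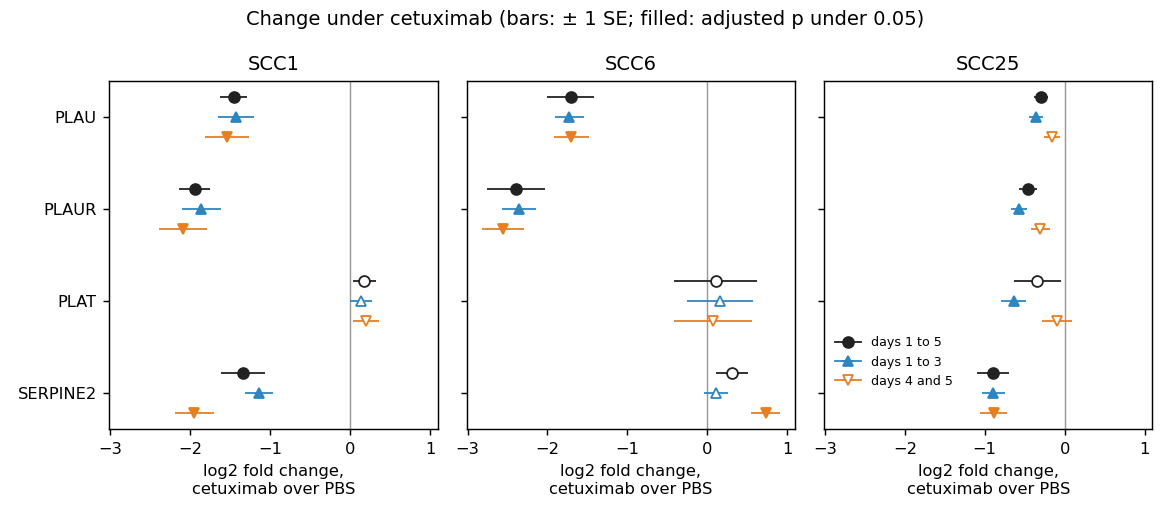
Log2 fold change of cetuximab over PBS for each gene and line, over days 1 to 5 (black circles), days 1 to 3 (blue triangles pointing up) and days 4 and 5 (orange triangles pointing down), with bars of 1 SE and filled symbols for an adjusted p under 0.05. PLAU and PLAUR lay left of 0 in each line and farther in SCC1 and SCC6 than in SCC25, and SERPINE2 lay left of 0 in SCC1 and SCC25 and right of 0 in SCC6.

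The differences of these changes between lines were tested as interactions of line and treatment, in 1 fit over the libraries of days 1 to 5. The change of PLAUR was less negative in SCC25 than in SCC1 by 1.502 ± 0.37 on the log2 scale (adjusted p = 0.0079) and than in SCC6 by 1.92 ± 0.37 (adjusted p = 4.71e-04). The change of PLAU was less negative in SCC25 than in SCC1 by 1.17 ± 0.31 (adjusted p = 0.015) and than in SCC6 by 1.40 ± 0.31 (adjusted p = 0.0021). Between SCC1 and SCC6 neither difference passed the test, with SCC6 minus SCC1 at -0.23 for PLAU (95% interval -0.84 to 0.38, adjusted p = 0.67) and at -0.42 for PLAUR (95% interval -1.14 to 0.30, adjusted p = 0.47), and with day as a block the latter was -0.48 (adjusted p = 0.020). With the flow cell as a covariate, which cannot be told apart from day, the PLAUR difference changed direction, to 0.24 (adjusted p = 0.80).

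For SERPINE2, the change in SCC6 was higher than in SCC1 by 1.67 ± 0.36 (adjusted p = 0.0011), and the change in SCC25 was lower than in SCC6 by -1.23 ± 0.31 (adjusted p = 0.0063). SCC25 minus SCC1 was 0.44 (95% interval -0.26 to 1.14, adjusted p = 0.56). None of the 3 differences passed the test for PLAT (adjusted p = 0.98, 0.70 and 0.63). Called were 1 of the 4 genes between SCC1 and SCC6, where 19.3% of all 21414 genes were called, 2 between SCC1 and SCC25 (8.52%) and 3 between SCC6 and SCC25 (17.5%). With the flow cell as a covariate, the difference of SERPINE2 between SCC1 and SCC6 was 1.28 (adjusted p = 0.11) and that of PLAU between SCC1 and SCC25 was 0.97 (adjusted p = 0.15), and both calls were lost. Within a line and treatment the flow cell changes only together with the day. This covariate therefore cannot tell flow cell from day, and neither the calls lost nor those kept test the flow cell.

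The time course was split into days 1 to 3 (3 libraries per treatment) and days 4 and 5 (2 per treatment). In SCC1, PLAU, PLAUR and SERPINE2 were lower in both periods, with log2 fold changes of -1.43 and -1.54 for PLAU, -1.86 and -2.09 for PLAUR, and -1.14 and -1.95 for SERPINE2, where 29.6% and 29.9% of all genes were called (15.6% and 15.4% lower). With the flow cell as a covariate the 3 calls of days 1 to 3 in SCC1, whose PBS and cetuximab libraries share no flow cell, were lost, at -0.93 for PLAU (adjusted p = 0.32), -1.69 for PLAUR (adjusted p = 0.13) and -0.53 for SERPINE2 (adjusted p = 0.39), and those of days 4 and 5 were kept. In SCC1 this covariate rests on PBS of day 4 on flow cell B against PBS of day 5 on C, 1 library each. It cannot tell flow cell from day there, so neither the calls lost nor those kept test the flow cell. In SCC6, PLAU (-1.73 and -1.70) and PLAUR (-2.35 and -2.56) were lower in both periods. SERPINE2 in SCC6 had a log2 fold change of 0.10 ± 0.15 on days 1 to 3 (adjusted p = 0.67) and was higher by 0.73 ± 0.18 on days 4 and 5 (adjusted p = 0.010), where 20.3% and 37.8% of all genes were called (9.61% lower on days 1 to 3, 18.9% in each direction on days 4 and 5). The later call was lost without the PBS library of day 5 (adjusted p = 0.091). In SCC25 all 4 genes were lower on days 1 to 3, with log2 fold changes of -0.36 for PLAU, -0.57 for PLAUR, -0.64 for PLAT and -0.89 for SERPINE2, against 7.84% of all genes called (3.77% lower). On days 4 and 5 SERPINE2, at -0.89 ± 0.17, was the 1 gene of the 4 that was called (2.71% of all genes, 1.22% lower). A covariate for flow cell took it to -0.43 (adjusted p = 0.14). In SCC25 this covariate rests on cetuximab of day 3 on flow cell B against days 1 and 2 on A, so it cannot tell flow cell from day either. The calls of PLAT and PLAU on days 1 to 3 and of SERPINE2 on days 4 and 5 each depended on single libraries, since PLAT lost its call without any of 7 libraries, PLAU without any of 3 and SERPINE2 without any of 6. PLAUR in SCC25 on days 4 and 5, at -0.31 (adjusted p = 0.20), passed without cetuximab of day 3 (adjusted p = 0.045).

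With all libraries and the filter on low counts, edgeR called no difference between the periods for any of the 4 genes. The largest difference on the log2 scale was that of SERPINE2, with -0.81 ± 0.30 in SCC1 (adjusted p = 0.66) and 0.62 ± 0.23 in SCC6 (adjusted p = 0.12). The latter passed without the filter (0.65, adjusted p = 0.017) and without PBS of day 3 (0.80, adjusted p = 0.048). By edgeR 0 genes of the whole table passed in each line, while 1458, 5626 and 599 genes in SCC1, SCC6 and SCC25 had an unadjusted p under 0.05, and DESeq2 called 31, 2735 and 3 genes.

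Levels also moved over the days without the drug. The PBS libraries of SCC6 were on flow cell C on days 0 and 1 and on D later. Those of SCC1 were on B, except day 5 on C. Trends in these lines therefore cannot tell day from flow cell, whereas all PBS libraries of SCC25 were on A. In SCC6 all 4 genes had a trend over days 0 to 5 with PBS, PLAT upwards by 0.59 ± 0.046 on the log2 scale per day (adjusted p = 1.98e-04), and PLAU by -0.28 ± 0.041 (adjusted p = 0.0021), PLAUR by -0.28 ± 0.059 (adjusted p = 0.0076) and SERPINE2 by -0.25 ± 0.040 (adjusted p = 0.0030), where 32.7% of all genes were called. In SCC25, 3 genes had a trend, PLAT by 0.16 ± 0.038 (adjusted p = 0.015), PLAU by -0.14 ± 0.019 (adjusted p = 8.44e-04) and SERPINE2 by -0.21 ± 0.020 (adjusted p = 5.20e-05), with 10.7% of all genes called. PLAUR in SCC25 had a trend of 0.069 ± 0.020 (adjusted p = 0.051), outside the threshold, and passed without PBS of day 2 (0.073, adjusted p = 0.034). In SCC1 no trend of the 4 genes passed the test, where 2.49% of all genes did, and PLAUR came closest with 0.33 ± 0.074 per day (adjusted p = 0.059, and 1.84e-05 by DESeq2). Without PBS of day 5, the trends of PLAU (0.31, adjusted p = 0.030) and PLAUR (0.45, adjusted p = 0.0093) in SCC1 passed, whereas those of PLAT in SCC25 (0.078, adjusted p = 0.26) and PLAUR in SCC6 (-0.18, adjusted p = 0.056) lost their calls.

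Across libraries, PLAU and PLAUR moved together in SCC1 and SCC6. Pearson's r of their log2 CPM was 0.96 in SCC1 and 0.99 in SCC6, over 11 libraries each, and 0.31 in SCC25, where SERPINE2 was closer to PLAU (r = 0.92) and PLAT to PLAUR (r = 0.80). These values describe libraries that share the treatment, the days and the library scaling. With each line centred on its own mean over the 33 libraries, 9897 genes whose mean log2 CPM reached 3 were searched, and the genes most like PLAU were OSBPL10 (r = 0.96), PNP (0.96), PLAUR (0.96), MRPL15 (0.95) and MLKL (0.95). Those most like PLAUR were NCEH1, MLKL, PNP, CDCP1 and PLAU (r 0.96 each). Values were lower for the genes nearest to PLAT, which were C6orf48, CNNM4, DIABLO, DHRS3 and TMEM18 (r 0.79 to 0.86), and to SERPINE2, which were AURKB, STX2, CENPO, EIF1AD and KIFC1 (r 0.84 to 0.87). Likeness differed between lines, since r of C6orf48 with PLAT was 0.38 in SCC1, 0.97 in SCC6 and 0.53 in SCC25, that of AURKB with SERPINE2 was 0.92, 0.32 and 0.93, and that of NCEH1 with PLAUR was 0.99, 0.97 and 0.36.

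**Figure D3:**
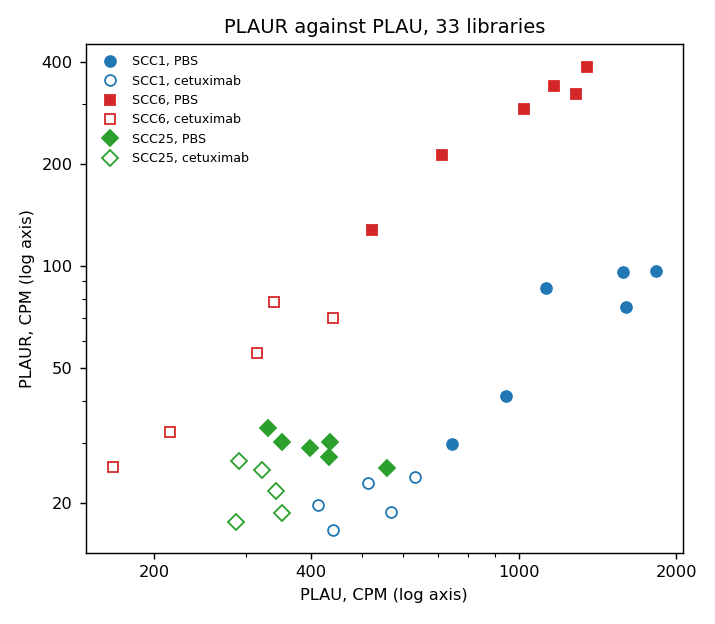
PLAUR against PLAU in CPM on log axes in the 33 libraries, with SCC1 as blue circles, SCC6 as red squares and SCC25 as green diamonds, filled for PBS and open for cetuximab. In SCC1 and SCC6 the libraries lay along a rising line with cetuximab at its lower end, whereas the SCC25 libraries formed a compact cloud with r = 0.31.

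The other genes of plasminogen activation were followed as a list of 26 genes that holds further inhibitors, the zymogen, plasminogen-binding proteins, proteases that activate pro-uPA, clearance receptors and partners of uPAR. In SCC1, 22 of them were tested, and 4 were higher and 8 lower with cetuximab (median log2 fold change -0.19, against 0.021 over all genes tested). In SCC6, 21 were tested, and 5 were higher and 4 lower (median 0.039, against 0.0039), and in SCC25, 21 were tested, and 3 were higher and 3 lower (median -0.0022, against 0.0062). Among all genes tested, 44.8%, 30.1% and 18.3% were called in SCC1, SCC6 and SCC25. PLG, the plasminogen gene itself, was near 0 in each line, with means from 0.278 to 1.33 CPM, and KLKB1, A2M, CPB2 and SERPINA5 did not pass the filter on low counts in any line.

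Among the inhibitors, SERPINB2, which encodes the uPA inhibitor PAI-2, was lower in all 3 lines, with a log2 fold change of -1.56 ± 0.14 in SCC1 (from 1796 ± 320 to 603 ± 109 CPM, SD, n = 5), -4.11 ± 0.96 in SCC6 (from 1140 ± 670 to 66.8 ± 75.3 CPM) and -1.80 ± 0.13 in SCC25 (from 12.4 ± 1.43 to 3.57 ± 0.601 CPM).

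ENO1, whose product binds plasminogen at the cell surface and which also serves in glycolysis, was lower in all 3 lines, with log2 fold changes of -0.36 in SCC1, -0.47 in SCC6 and -0.28 in SCC25. CTSL, a cathepsin that can activate pro-uPA, was lower in SCC1 (-0.63) and SCC6 (-0.48). LRP1, the endocytic receptor that clears inhibitor-bound uPA, was higher in SCC1 (0.82 ± 0.089) and SCC6 (1.62 ± 0.30), and in SCC25 it did not pass the test (0.25 ± 0.13, adjusted p = 0.22).

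Of the partners of uPAR, ITGAV, an integrin chain of the vitronectin receptor, was higher in all 3 lines, by log2 fold changes of 0.57, 1.14 and 0.45 in SCC1, SCC6 and SCC25. ITGB3, its partner chain, was higher in SCC6 (2.99 ± 0.34, from 1.05 to 8.43 CPM) and SCC25 (0.89 ± 0.18), and did not pass the test in SCC1 (-0.41 ± 0.26, adjusted p = 0.21). ITGA3, an integrin chain of the laminin receptor, was lower in SCC1 (-1.13) and SCC25 (-0.29, adjusted p = 0.048), and in SCC6 it did not pass the test (0.42, adjusted p = 0.19, with 15 of 18 alternatives also outside the threshold). Of 17 alternatives, 7 kept the SCC25 call of ITGA3, and it was lost without any 1 of 8 of the 10 libraries (adjusted p 0.054 to 0.11), the exceptions being cetuximab of days 2 and 3. ITGB5, another partner of ITGAV, was lower in SCC1 (-0.43) and higher in SCC6 (0.51). VTN, which encodes vitronectin, was called higher in SCC1 (2.84 ± 0.54) at a level under 1 CPM in each library, and it was not tested in SCC6 and SCC25. Within flow cell A the SCC25 calls of ITGAV (adjusted p = 0.081) and ITGB3 (adjusted p = 0.10) were lost, and within flow cell C, with its 1 PBS library, the SCC1 values were 0.46 for ITGAV, -0.15 for ITGB5 and 2.52 for VTN. The call of ITGB5 in SCC6 was lost with day 0 added to PBS (0.40, adjusted p = 0.079). For comparison, 11 of 13 genes of the output of ERK, the kinase downstream of EGFR, were lower in each line and none was higher, beside 22.1%, 14.6% and 9.5% of all genes called lower in SCC1, SCC6 and SCC25, with median log2 fold changes of -1.93 in SCC1, -1.56 in SCC6 and -1.05 in SCC25.

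**Figure D4:**
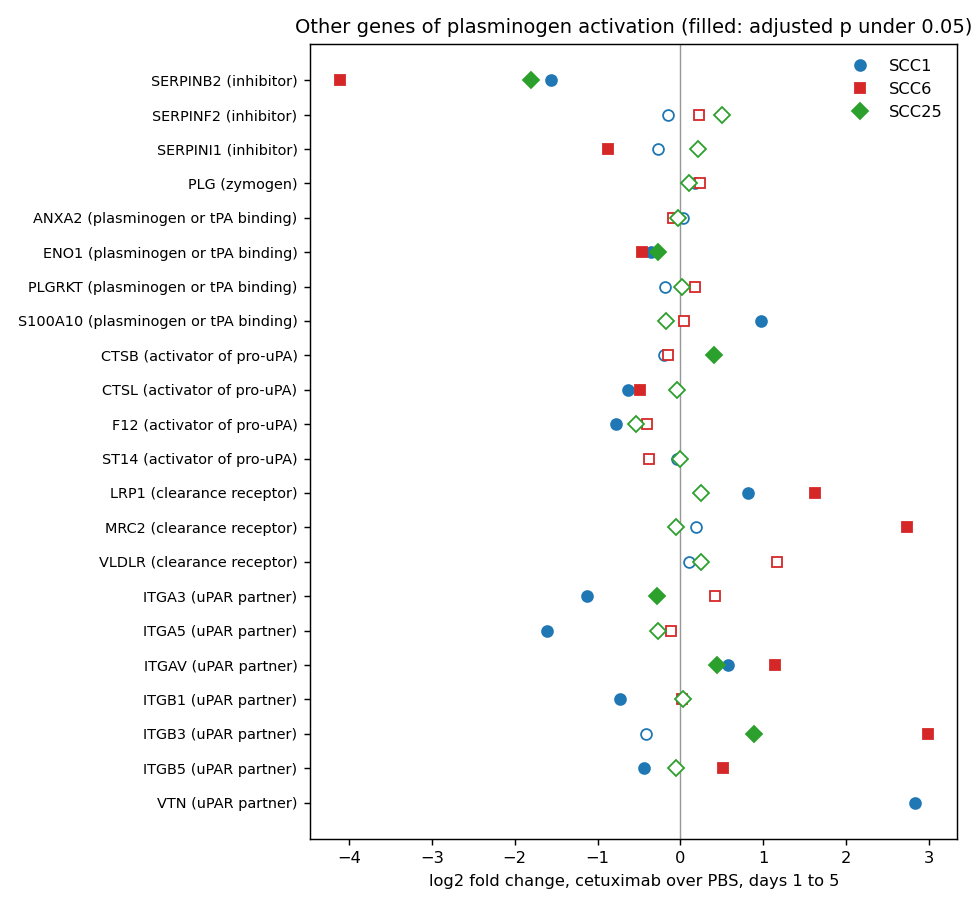
Log2 fold change of cetuximab over PBS on days 1 to 5 for the tested genes of the list other than PLAU, PLAUR, PLAT and SERPINE2, with the role in brackets, SCC1 as blue circles, SCC6 as red squares and SCC25 as green diamonds, filled for an adjusted p under 0.05. SERPINB2 lay left of 0 and ITGAV right of 0 in each line.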

How the data were processed

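Cells were sequenced as bulk RNA with a stranded kit on 5 flow cells. The authors deposited estimated counts per gene symbol, which were inferred with Salmon 0.8.2 against the hg19 build, per the submitters' processing notes and the labels, imported with tximport and not normalised between libraries. The annotation release is not given in the sources used here. After rounding to whole numbers, these were fitted with edgeR 4.0.16 under R 4.3.3 (with limma 3.58.1), using filterByExpr, TMM scaling and the quasi-likelihood F test, two-sided, with Benjamini-Hochberg adjustment over all genes tested and a threshold of 0.05. CPM use the TMM factors, and levels per kb divide them by the length of the canonical transcript (GENCODE on GRCh37, joined by symbol). Correlations use log2 CPM with a prior count of 2. Intervals are 1.96 SE to each side. The depth of 28508758 to 80727478 counts per library makes counting error small for PLAU and PLAUR and larger for SERPINE2 in SCC1.

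Cetuximab was compared with PBS in each line on days 1 to 5 (5 libraries each), by period, and between lines. Untreated lines and the trend with PBS used days 0 to 5. The labels name each library's line, treatment and day. Deviations from the treatment mean were compared by correlation between the PBS and cetuximab libraries of a day. The values were 0.10 to 0.38 in SCC1 and 0.22 to 0.58 in SCC25. In SCC6 they were 0.57 (2a), 0.53 (2b) and 0.58, -0.18 and -0.0074 on days 3 to 5. In SCC1 only cetuximab of days 1 and 2 was most like PBS of its own day. In SCC25 this held for days 2 to 5, and day 1 was most like PBS of day 2. In SCC6 it held for 2a, 2b and day 3, whereas days 4 and 5 were most like PBS of day 1. The labelled days thus pair the libraries only in part in each line. The alternatives were DESeq2 1.42.0, its size factors, upper quartile scaling, no filter, leaving out single libraries, a block for day, PBS with day 0 included, 1 flow cell only, flow cell as a covariate, and SCC6 without 2a and 2b. The fits were tested on simulated data, with 200 genes changed by 1 on the log2 scale. Of these, 97.5% were recovered for cetuximab against PBS in SCC1 (17791 genes), 82.5% in SCC6 (17122 genes) and 98.5% in SCC25 (18829 genes). For the difference between SCC1 and SCC6 75% were recovered, with 8.54% false among the genes called, and for the trend in SCC6 67%. The simulated libraries were independent, and apart from the changed genes they held no effect of day or flow cell. These rates therefore do not carry over to days used as replicates.

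The 4 genes and the lists were chosen with earlier results of these data known. Named beyond the 4 genes are those of the plasminogen list called in at least 2 lines or changed most in a line, and the 5 genes most like each of the 4. Some items of the lists are not reported here and were left out of their counts and sums.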

Additional observations from a re-analysis of the deposited data

Results flagged for a closer look

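In 2 of 24 groups of libraries, of a gene, line and treatment on days 1 to 5, the lowest library stood farther from the others than Dixon's 95% critical value for 5 samples allows, where chance flags about 1 in 20 groups. PLAUR in SCC1 with PBS was 41.3 CPM on day 1, against 75.6 to 96.3 CPM on days 2 to 5. On day 0, which is outside these groups, it was lower still, at 29.8 CPM. SERPINE2 in SCC1 with PBS was 2.30 CPM on day 5, against 3.46 to 4.05 CPM. The library of day 5 is also the only PBS library of SCC1 on flow cell C.

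The change with cetuximab differed between lines by edgeR's line-by-treatment terms in 6 cases, each on the log2 scale. For PLAU it was higher in SCC25 than in SCC1 by 1.17 and than in SCC6 by 1.40. For PLAUR it was higher in SCC25 than in SCC1 by 1.502 and than in SCC6 by 1.92. For SERPINE2 it was higher in SCC6 than in SCC1 by 1.67, and SCC25 minus SCC6 was -1.23. What part the flow cells, which differ between lines and treatments, had in these differences was not tested. The flow cell covariate cannot tell flow cell from day, and its values stand with the results above.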

How the results depend on the processing

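Of 1588 values of the 4 genes under an alternative, 851 belonged to changes that were called, of which 816 kept the call, 35 lost it and 0 changed direction. Most of these alternatives left out a single library and share nearly all their data. The count kept therefore says little on the flow cells, and calls lost with 1 flow cell or the flow cell covariate are among the values below. All values are on the log2 scale, and where a call or a direction changed the cause was not tested. With libraries of 1 flow cell, cetuximab against PBS was -0.22 for PLAT and -0.74 for SERPINE2 in SCC1, -0.86 for PLAT in SCC6, and -1.005 for PLAT, -0.17 for PLAU, -0.54 for SERPINE2 and 0.026 for ITGB5 in SCC25. In each of these subsets the PBS and cetuximab libraries cover different days, so flow cell and day cannot be told apart. With the flow cell as a covariate, which cannot be told apart from day, the difference of PLAUR between SCC1 and SCC6 changed direction, from -0.42 to 0.24. That of SERPINE2 between these lines was 1.28, and that of PLAU between SCC1 and SCC25 was 0.97. On days 1 to 3 in SCC1 this covariate gave -0.23 for PLAT, -0.93 for PLAU, -1.69 for PLAUR and -0.53 for SERPINE2, and on days 4 and 5 in SCC25 it gave 0.10 for PLAU and -0.43 for SERPINE2. With day as a replicate block, SERPINE2 in SCC6 was 0.44, PLAT in SCC25 -0.41, and PLAUR between SCC1 and SCC6 -0.48, and PLAT was -0.012 on days 1 to 3 in SCC6 and the differences between periods there were 0.095 for PLAT and -0.052 for PLAU. The block left the other 54 of 60 values of the 4 genes on their side of the threshold. DESeq2 gave -0.0042 for the period difference of PLAU in SCC6 and trends of 0.33 for PLAUR in SCC1 and 0.068 in SCC25, and its size factors gave -0.0043 for that period difference. Upper quartile scaling gave -0.031 for it, and in SCC25 -0.25 for PLAU and 0.0081 for CTSL. Without the filter, PLAT between SCC1 and SCC6 was 0.016, the period difference of SERPINE2 in SCC6 was 0.65 and the trend of PLAUR in SCC1 was 0.33.

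Leaving out single libraries gave these ranges for cetuximab against PBS. On days 1 to 5 they were -0.17 to 0.45 for PLAT in SCC6, -0.33 to -0.24 for PLAU and -0.071 to 0.0022 for ITGB5 in SCC25. On days 1 to 3 they were -0.20 to 0.64 for PLAT and -0.068 to 0.22 for SERPINE2 in SCC6, and -0.71 to -0.53 for PLAT and -0.41 to -0.28 for PLAU in SCC25. On days 4 and 5 they were -2.29e-04 to 0.40 for PLAT in SCC1, -0.13 to 0.31 for PLAT and 0.60 to 0.88 for SERPINE2 in SCC6, and -0.33 to 0.19 for PLAT, -0.38 to -0.23 for PLAUR and -1.01 to -0.77 for SERPINE2 in SCC25. The period differences ranged in SCC1 from -0.14 to 0.25 for PLAT, -0.35 to 0.14 for PLAU and -0.51 to 0.033 for PLAUR, in SCC6 from -0.57 to 0.27 for PLAT, -0.18 to 0.26 for PLAU, -0.52 to 0.20 for PLAUR and 0.49 to 0.80 for SERPINE2, and in SCC25 from -0.13 to 0.17 for SERPINE2. PLAT ranged from -0.32 to 0.32 between SCC1 and SCC6 in its change, from 0.22 to 0.78 for untreated SCC6 over SCC1 and from -0.42 to 0.13 for untreated SCC25 over SCC6. Trends per day with PBS ranged from -0.0071 to 0.12 for PLAT, 0.036 to 0.31 for PLAU and 0.23 to 0.45 for PLAUR in SCC1, from -0.40 to -0.18 for PLAUR in SCC6, and from 0.078 to 0.24 for PLAT and 0.056 to 0.075 for PLAUR in SCC25. Where 1 library was left in an arm, it is assumed to vary like the other libraries. Differences of SERPINE2 in SCC1 rest on 29 to 180 counts per library on days 1 to 5, where counting error is larger than for the other genes.

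The number of genes called over the whole table moved by more than 1.5 times in these cases. With 1 flow cell it went from 8061 to 3523 in SCC1 and from 3496 to 1899 in SCC25. With day as a block it went from 5238 to 7961 in SCC6, from 3893 to 5889 there on days 1 to 3, and for differences between lines from 4128 to 6675 (SCC1 and SCC6), 1824 to 2996 (SCC1 and SCC25) and 3750 to 7208 (SCC6 and SCC25), where the flow cell covariate gave 2359, 949 and 1748. This covariate took days 1 to 3 from 5818 to 210 in SCC1 and from 1626 to 3359 in SCC25, and days 4 and 5 in SCC25 from 562 to 2432, where DESeq2 gave 1168. For the period differences, with 0 genes each, DESeq2 gave 31, 2735 and 3 and no filter 202, 3366 and 7 in SCC1, SCC6 and SCC25, the block 2470 in SCC6 and the covariate 209 in SCC25. DESeq2 took the trend in SCC1 from 474 to 1468.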
